A study of Caenorhabditis elegans with 11 samples.

Results

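The chemoreceptor genes of C. elegans were taken by name from both tables of a study of SACY-1, the worm ortholog of the human helicase DDX41. A gene or splicing event was a member where its listed name began with 1 of 20 family prefixes, such as sra-, srh-, srw-, srx- or str-. The rule found 9 of 882 genes in the expression table and 39 of 3096 events in the splicing table. The 39 events lay in 30 genes, and srw-86 was the single gene found in both tables, so 38 genes were named in all.

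Poly(A)+ RNA came from lysates of young adult animals, in 4 groups that all received 2 mM auxin for 24 hours at 20 °C. Soma-depleted worms (3 samples, strain DG4703) carried the sacy-1 allele tn1880, which adds aid::gfp::myc to SACY-1, and the transgene ieSi57, in which the eft-3 promoter drives TIR1::mRuby in somatic cells. Soma controls (2 samples, strain CA1200) carried ieSi57 and unc-119(ed3). Germline-depleted worms (3 samples, strain DG4700) carried the same tagged sacy-1 allele and ieSi64, in which the gld-1 promoter drives TIR1::mRuby in the germline. Germline controls (3 samples, strain CA1352) carried ieSi64 and unc-119(ed3). Both transgenes also hold Cb unc-119(+). TIR1 is a plant receptor that, with auxin, sends proteins bearing the aid tag to degradation. The controls thus had TIR1 and auxin but no tagged SACY-1, and they had an unc-119 mutation that the depleted strains do not list. Depletion and that difference in genotype cannot be told apart.

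Chemoreceptors of these families are seven-transmembrane proteins, most of them thought to sit in the cilia of a few head and tail neurons, where they detect odours, tastes and pheromones. Binding of a ligand acts through G proteins, guanylate cyclases or lipid signals on the TAX-2/TAX-4 or OSM-9/OCR-2 channels. The families are grouped by sequence into the Str, Sra and Srg superfamilies and the solo families srbc, srsx, srw and srz. Single receptors are usually made in few cells, so their transcripts are scarce in RNA of whole worms. In bulk RNA, fewer cells of a type and less RNA per cell cannot be told apart.

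The genome annotation held 1618 genes with these names, 1299 protein-coding genes and 319 pseudogenes, of which 1103 lie on chromosome V. Thus 0.556% of the repertoire was named for expression and 1.85% for splicing. Of the 38 named genes, 27 lie on chromosome V, 6 on II, 4 on IV and 1 on X. The Str superfamily gave 16 named genes of 722, the Sra superfamily 7 of 141, the Srg superfamily 7 of 380 and the solo families 8 of 375. The srg, srt, srsx, srxa and srm families had no member in either table. Many chemoreceptor genes have close copies elsewhere in the genome, so reads counted for a single gene are uncertain. The values per group are the authors' means, with no value per sample, so no standard deviation can be given and overlap between samples cannot be judged. Depth per sample is unknown, and it is not given whether 2 or 3 libraries entered the soma control mean.

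After depletion in the soma, str-31 rose and sre-6, srj-14 and sru-40 fell. By an adjusted p below 0.05 in the authors' deposited table, these were 4 of the 9 listed chemoreceptor genes. The soma comparison called 59.5% of all 882 listed genes, 29.7% as higher and 29.8% as lower. After depletion in the germline, str-31, srh-16 and str-173 rose, and srw-86, srab-12, sre-6 and srh-129 fell. Those 7 of 9 genes stand beside 62.9% of all listed genes called in the germline comparison of the authors' deposited table (41.8% higher and 21.1% lower). Every listed gene had, in at least 1 comparison, a called log2 fold change of at least 1 in size, so these shares describe listed genes and not the genome.

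Their median levels lay below those of all listed genes. The median of the 9 genes in FPKM, a read count set against transcript length and sequencing depth, was 3.74 in soma-depleted worms and 2.68 in soma controls in the authors' deposited table. It was 3.18 FPKM in germline-depleted worms and 4.75 FPKM in germline controls. All 882 listed genes had medians of 6.37, 6.08, 6.76 and 5.59 FPKM in the same 4 groups of the authors' deposited table. The mean count over all samples ran from 39.5 for srh-16 to 420 for srj-14 in the authors' deposited table. The lowest FPKM of a member was 0.38, that of str-31 in germline controls, and the highest was 37.7, that of srw-86 in germline controls.

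**Figure D1:**
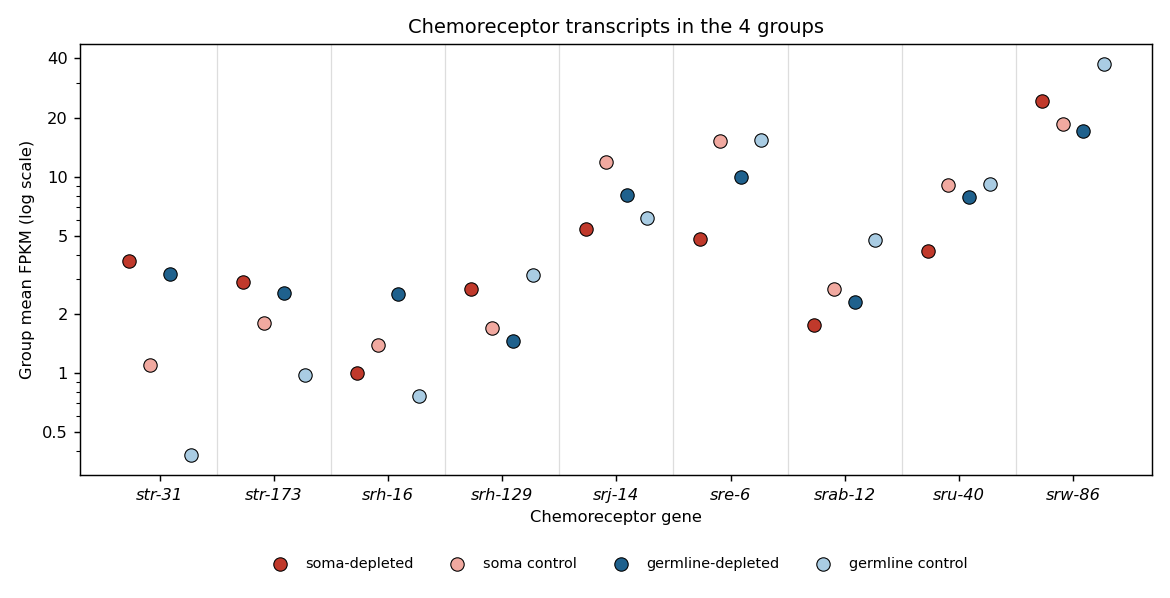
Group mean FPKM (log axis) of the 9 listed chemoreceptor genes, 1 point per group, with no replicate values. The str-31 points span 0.38 to 3.74 FPKM, and the germline control point is the highest or the lowest of the 4 in 8 of the 9 genes, srj-14 being the exception. It was so in all 7 chemoreceptor genes called in the germline comparison, beside 452 of the 555 listed genes called there (81.4%). Among called genes it is thus not particular to chemoreceptor genes. In sru-40, not called there, the germline control (9.13 FPKM) and soma control (9.09 FPKM) nearly coincide.

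The gene str-31 (WBGene00006097), of the large str family that gives the Str superfamily its name, lies on chromosome V at 7506869 to 7508666 on the minus strand and has 4 annotated exons. The authors' deposited table gave it 3.74 FPKM in soma-depleted worms and 1.10 FPKM in soma controls (log2 fold change 1.76, adjusted p = 3.39e-05). It gave 3.18 FPKM in germline-depleted worms and 0.38 FPKM in germline controls (log2 fold change 3.06, adjusted p = 1.08e-13). Both depleted means thus lay above both control means. The control means themselves differed, with soma controls 2.89 times the level of germline controls, a difference for which no test is given. By the distance between centred profiles of log2(FPKM + 0.1) over the 4 groups, the 5 listed genes most like str-31 were W08E12.2 (distance 0.69), the nuclear hormone receptor gene nhr-172 (0.76), C32B5.18 (0.97), the F-box gene fbxb-85 (1.03) and C45B2.1 (1.10). Each of the 5 had its lowest mean in germline controls, as str-31 did, which largely follows from choosing them by likeness over these same 4 means.

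A second str gene, str-173 (chromosome IV, 4861773 to 4864149), had 2.55 FPKM in germline-depleted worms and 0.973 FPKM in germline controls in the authors' deposited table (log2 fold change 1.38, adjusted p = 0.000132). Its soma means were 2.89 FPKM after depletion and 1.81 FPKM in controls, which did not pass (log2 fold change 0.67, adjusted p = 0.156 in the authors' deposited table). The groups stood in the same order as for str-31, from germline controls at the bottom to soma-depleted worms at the top. A tRNA gene and piRNA genes on its strand, and the noncoding gene Y17G9A.87 on the other strand, overlap str-173. Nothing in the labels or headers says whether counting used strand.

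The srh family, also of the Str superfamily, had a member in each direction after germline depletion. The gene srh-16 (chromosome V, 12291861 to 12294196) had 2.52 FPKM in germline-depleted worms and 0.76 FPKM in germline controls (log2 fold change 1.73, adjusted p = 3.33e-06) in the authors' deposited table. Its soma means were 0.997 FPKM after depletion and 1.39 FPKM in controls (log2 fold change -0.46, adjusted p = 0.413 in the authors' deposited table). Germline-depleted worms had the highest mean of srh-16, which sets it apart from str-31 and str-173, whose highest mean was in soma-depleted worms. The gene srh-129 (chromosome V, 5142262 to 5143885) had 1.45 FPKM in germline-depleted worms and 3.15 FPKM in germline controls (log2 fold change -1.13, adjusted p = 0.000864) in the authors' deposited table. Its soma means were 2.67 FPKM after depletion and 1.703 FPKM in controls, with an adjusted p of 0.163 in the authors' deposited table.

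The other Str superfamily gene, srj-14 (chromosome V, 7369708 to 7372131), fell to 5.38 FPKM in soma-depleted worms, against 11.8 FPKM in soma controls (log2 fold change -1.14, adjusted p = 1.08e-09 in the authors' deposited table). Its germline means were 8.02 FPKM after depletion and 6.19 FPKM in controls (log2 fold change 0.37, adjusted p = 0.0516 in the authors' deposited table). The soma control mean of srj-14 was the highest of the 4 and the soma-depleted mean the lowest.

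In the Sra superfamily, sre-6 fell in both comparisons of the authors' deposited table. This gene (chromosome V, 10760575 to 10762795, minus strand) had 4.80 FPKM in soma-depleted worms and 15.1 FPKM in soma controls (log2 fold change -1.66, adjusted p = 1.29e-18 in the authors' deposited table). In the germline comparison the means were 9.93 FPKM after depletion and 15.3 FPKM in controls (log2 fold change -0.62, adjusted p = 0.000383 in the authors' deposited table). The control means differed little, with a ratio of 0.989 of soma to germline controls. The protein-coding gene F28H7.8 overlaps sre-6 on the plus strand and was not among the listed genes. The other Sra gene, srab-12 (chromosome V, 17780269 to 17783642), had 2.31 FPKM in germline-depleted worms and 4.75 FPKM in germline controls (log2 fold change -1.03, adjusted p = 0.000344 in the authors' deposited table). Its soma means were 1.75 FPKM after depletion and 2.68 FPKM in controls, with an adjusted p of 0.142 in the authors' deposited table. An annotated pseudogene overlaps srab-12 on the other strand.

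The Srg superfamily and the solo families had 1 listed gene each. The gene sru-40 (chromosome V, 9832646 to 9834000) fell to 4.17 FPKM in soma-depleted worms, against 9.09 FPKM in soma controls (log2 fold change -1.13, adjusted p = 4.28e-07 in the authors' deposited table). Its germline means were close, with 7.83 FPKM after depletion and 9.13 FPKM in controls (adjusted p = 0.334 in the authors' deposited table). The srw family resembles receptors for neuropeptides, and its listed gene srw-86 had the highest FPKM of the 9 genes. It had 16.99 FPKM in germline-depleted worms and 37.7 FPKM in germline controls (log2 fold change -1.15, adjusted p = 1.18e-14) in the authors' deposited table. In the soma its means were 24.2 FPKM after depletion and 18.5 FPKM in controls (log2 fold change 0.39, adjusted p = 0.0565 in the authors' deposited table). The annotated gene is short, with 2 exons at 19400077 to 19400719 on chromosome V.

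**Figure D2:**
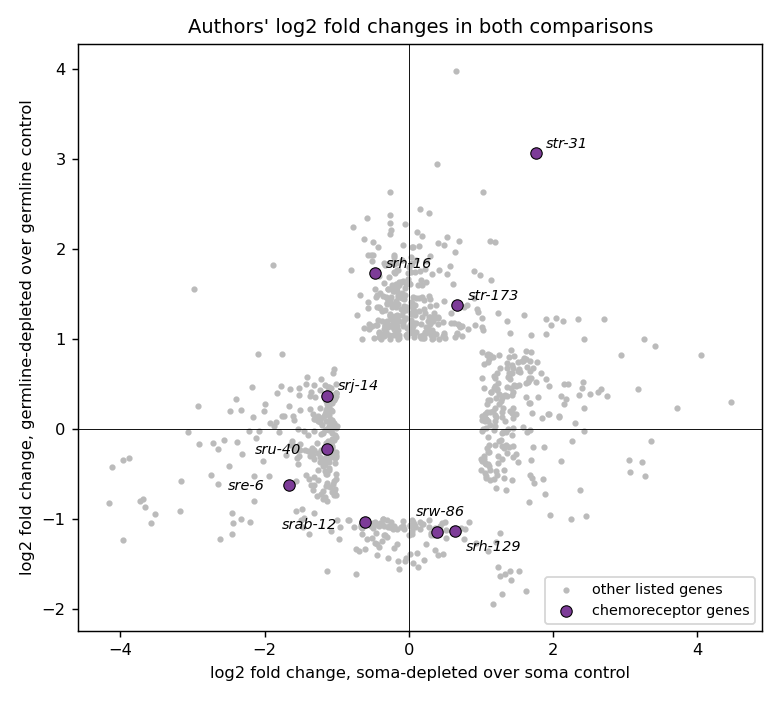
The authors' log2 fold changes of all 882 listed genes, with soma-depleted over soma control on the x axis and germline-depleted over germline control on the y axis. The gene str-31 (1.76 and 3.06) is the chemoreceptor gene farthest from the origin, and 4 of the 9 chemoreceptor genes have opposite signs in the 2 comparisons.

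The germline control mean was the highest or the lowest of the 4 group means in all 7 chemoreceptor genes called in the germline comparison. The same held for 452 of 555 genes (81.4%) called there among all listed genes. The soma-depleted mean was the highest or the lowest in all 4 members called in the soma comparison, beside 455 of 525 listed genes (86.7%). The genes str-31 and sre-6 were called in both comparisons, each in the same direction in both. These 2 of 9 genes (22.2%) stand beside 198 of all 882 listed genes (22.4%) called in both. Whether a fold change differed between the soma and the germline comparison was not tested.

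The diacetyl receptor gene odr-10, whose name lies outside the prefixes though its protein belongs to the str family, was also listed. It had 3.18 FPKM in soma-depleted worms and 7.60 FPKM in soma controls (log2 fold change -1.25, adjusted p = 4.18e-07 in the authors' deposited table). In the germline comparison it had 3.67 FPKM after depletion and 5.46 FPKM in controls (log2 fold change -0.57, adjusted p = 0.0174 in the authors' deposited table). The serpentine receptor gene srr-6 rose to 7.33 FPKM in soma-depleted worms, against 3.45 FPKM in soma controls (log2 fold change 1.09, adjusted p = 0.00014 in the authors' deposited table).

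Few genes of the pathway downstream of the receptors were listed for expression. Of 36 genes of chemosensory signalling, osm-9 and gpa-11 were listed, and both fell after germline depletion. The gene osm-9, which encodes a TRPV channel of sensory cilia, had 1.00 FPKM in germline-depleted worms and 2.77 FPKM in germline controls (log2 fold change -1.46, adjusted p = 1.93e-08 in the authors' deposited table). The G protein alpha subunit gene gpa-11 had 1.61 FPKM in germline-depleted worms and 3.92 FPKM in germline controls (log2 fold change -1.28, adjusted p = 2.07e-06 in the authors' deposited table). Neither was called in the soma, with adjusted p-values of 0.632 for osm-9 and 0.728 for gpa-11 in the authors' deposited table. Germline controls had the highest of the 4 means for both genes. The germline comparison called 21.1% of all 882 listed genes as lower.

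Of 31 gcy guanylate cyclase genes, gcy-32, gcy-35, gcy-36 and gcy-37 were listed, and all 4 fell after soma depletion. These genes encode soluble cyclases, known for oxygen sensing in the neurons AQR, PQR and URX. The summed level of the 4 genes was 5.95 FPKM in soma-depleted worms and 15.0 FPKM in soma controls, and 15.4 FPKM in germline-depleted worms and 20.7 FPKM in germline controls, from the authors' deposited table. The largest change was that of gcy-37, with 0.596 FPKM in soma-depleted worms and 2.25 FPKM in soma controls (log2 fold change -1.93, adjusted p = 1.67e-11 in the authors' deposited table). The other soma log2 fold changes were -1.02 for gcy-35, -1.56 for gcy-36 and -1.34 for gcy-32 in the authors' deposited table. In the germline comparison gcy-35 (log2 fold change -0.66) and gcy-37 (-0.53) also fell, and gcy-36 and gcy-32 did not pass in the authors' deposited table. Of all 882 listed genes, 29.8% were called lower in the soma comparison and 21.1% in the germline comparison.

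None of 49 genes of receptor trafficking and cilia, 23 sensory transcription factor and regulator genes or 14 pan-neuronal genes was listed for expression. Of 23 marker genes of chemosensory neurons and cilia, 2 were listed, osm-9 and odr-10. Levels of the rest are not given in the tables used here, so the labelled whole-worm lysate cannot be checked further for these neurons. The neuronally expressed gene unc-119, mutated in the control strains, had 22.8 FPKM in soma-depleted worms and 8.91 FPKM in soma controls (log2 fold change 1.35, adjusted p = 5.88e-12 in the authors' deposited table). It had 7.96 FPKM in germline-depleted worms and 5.74 FPKM in germline controls (adjusted p = 0.0257 in the authors' deposited table). Its part in the chemoreceptor results was not tested.

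Markers of other tissues also moved. Of 83 sperm genes, 18 were listed, and all 18 rose after soma depletion in the authors' deposited table. In the germline comparison 4 of the 18 were called higher and 0 lower. The summed level of the 18 genes was 148 FPKM in soma-depleted worms and 50.8 FPKM in soma controls, and 93.6 FPKM in germline-depleted worms and 57.7 FPKM in germline controls. Of 194 cuticle genes, 68 were listed, with a summed level of 15123 FPKM in soma-depleted worms and 6094 FPKM in soma controls, and 11969 FPKM in germline-depleted worms and 10065 FPKM in germline controls. By the calls of the authors' deposited table, 32 of the 68 rose and 20 fell in the soma comparison, and 14 rose and 29 fell in the germline comparison. Of all 882 listed genes, 29.7% were called higher and 29.8% lower in the soma comparison. The germline shares were 41.8% higher and 21.1% lower. The lowest group mean of a listed gene was 0.674 FPKM among sperm genes and 0.15 FPKM among cuticle genes in the authors' deposited table. Their part in the chemoreceptor results was not tested.

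Splicing of chemoreceptor transcripts was the second readout. Events listed as intron retention led the called chemoreceptor events in both comparisons, with 10 of 20 soma events and 6 of 18 germline events. A single event, in srz-64, was called in both. Called means a q-value below 0.05 in the authors' deposited table. In the soma this took 20 of the 38 chemoreceptor events with a value, beside 53.1% of all listed events with one. The germline comparison called 18 of 38, beside 26.5%. The 1 event called in both was 5% of the soma-called and 5.56% of the germline-called chemoreceptor events. Over all listed events, 236 were called in both, 14.7% of those called in the soma and 29.6% of those called in the germline. Each listed event was called in at least 1 comparison of the table, which also compares sperm-producing with oocyte-producing worms. That comparison called 5.13% of the chemoreceptor events and 51.7% of all listed events. Chemoreceptor events were thus listed almost only through a soma or germline call (37 of 39). The shares called in the soma and the germline therefore depend on how events came to be listed, and whether they differ otherwise was not tested. The table gives an inclusion level difference, a difference between 2 fractions that runs from -1 to 1. Neither the order of subtraction nor the form counted as included is stated, so signs are given as deposited. No inclusion level per group is given.

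Of the 20 events called in the soma, 10 were retained introns (RI), 6 alternative 3′ splice sites (A3SS), 3 alternative 5′ splice sites (A5SS) and 1 a skipped exon (SE) in the authors' deposited table. Events listed as RI were thus 50% of called chemoreceptor events and 17.6% of all 1606 called events, and A3SS events 30% and 62.1%. The soma-called RI events include those of sri-23 and srz-64 and the one of srw-85 at 19431062 to 19432157. Those held no annotated intron of the named gene, which was not counted for all events. Of the 18 called in the germline, 6 were RI, 4 A3SS, 4 SE, 2 A5SS and 2 mutually exclusive exons (MXE). Retained introns were 33.3% of them and 18.8% of all 796 called events, and A3SS events 22.2% and 54.9%. The median absolute difference of called chemoreceptor events was 0.327 in the soma and 0.314 in the germline, beside 0.18 and 0.129 for all called events in the authors' deposited table. It reached 0.2 in 16 of 20 soma events (80%), beside 44.9% of all called soma events. The germline count was 16 of 18 (88.9%), beside 27.6% of all called germline events. The sets compared differ in their mix of event type, and sizes were not compared within a type. The reads behind each event are not given in the table, so sizes could not be compared at like read numbers. Whether chemoreceptor events changed more than others like them was not tested.

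**Figure D3:**
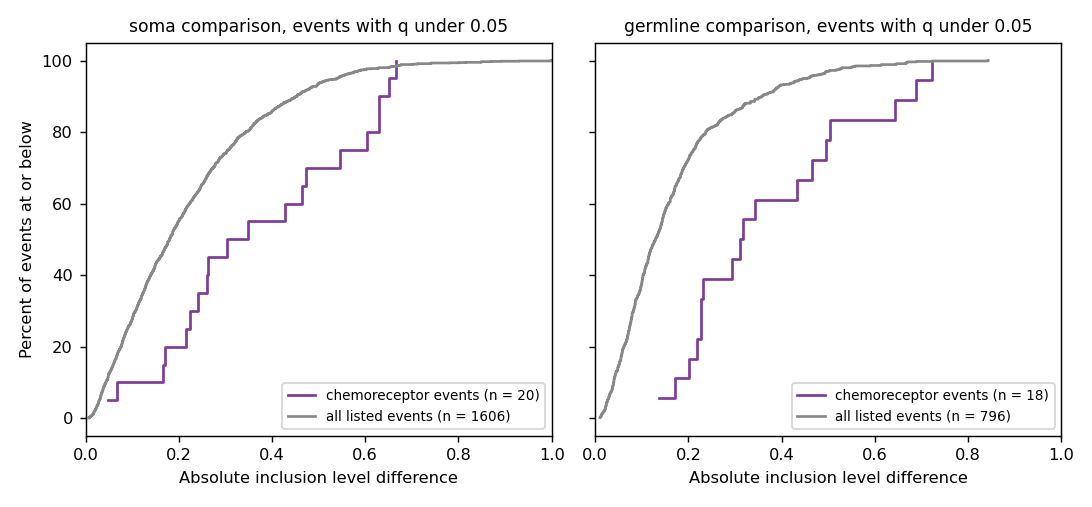
Cumulative share of called events (y axis, percent) by absolute inclusion level difference (x axis, a fraction), for chemoreceptor events and all listed events. The chemoreceptor curves lie to the right of those of all called events over most of the range, with medians of 0.327 against 0.18 in the soma and 0.314 against 0.129 in the germline. The sets differ in their mix of event types, and reads per event are not given.

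Of the called soma events, 9 had a positive and 11 a negative difference, where 11.8% of all listed events were called with a positive and 41.2% with a negative difference. In the germline 6 were positive and 12 negative, where 8.26% of all listed events were called with a positive and 18.3% with a negative difference. Among called events alone, the positive share was 45% of chemoreceptor events and 22.3% of all events in the soma. In the germline it was 33.3% of chemoreceptor events and 31.2% of all events. Several positive soma events lie in srw-85, where events overlap. Counted with 1 event per gene, 6 soma events were positive and 10 negative. Called retained introns were negative in the soma in 40% of chemoreceptor events and 42.8% of all, and A3SS events in 66.7% and 92.6%. Retained introns were 50% of soma-called chemoreceptor events and 17.6% of all, so the positive shares compare different mixes of event type. Among events called in the soma that had a nonzero germline difference, 9 of 18 chemoreceptor events (50%) and 1004 of 1554 of all events (64.6%) had the same sign in both. Of the germline-called events with a nonzero soma difference, 7 of 17 chemoreceptor events (41.2%) and 505 of 769 of all events (65.7%) did. These shares also compare different mixes of event type, and overlapping events such as those of srw-85 count separately. The q-value in the other comparison was 1 in 7 of the soma-called and 9 of the germline-called chemoreceptor events.

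**Figure D4:**
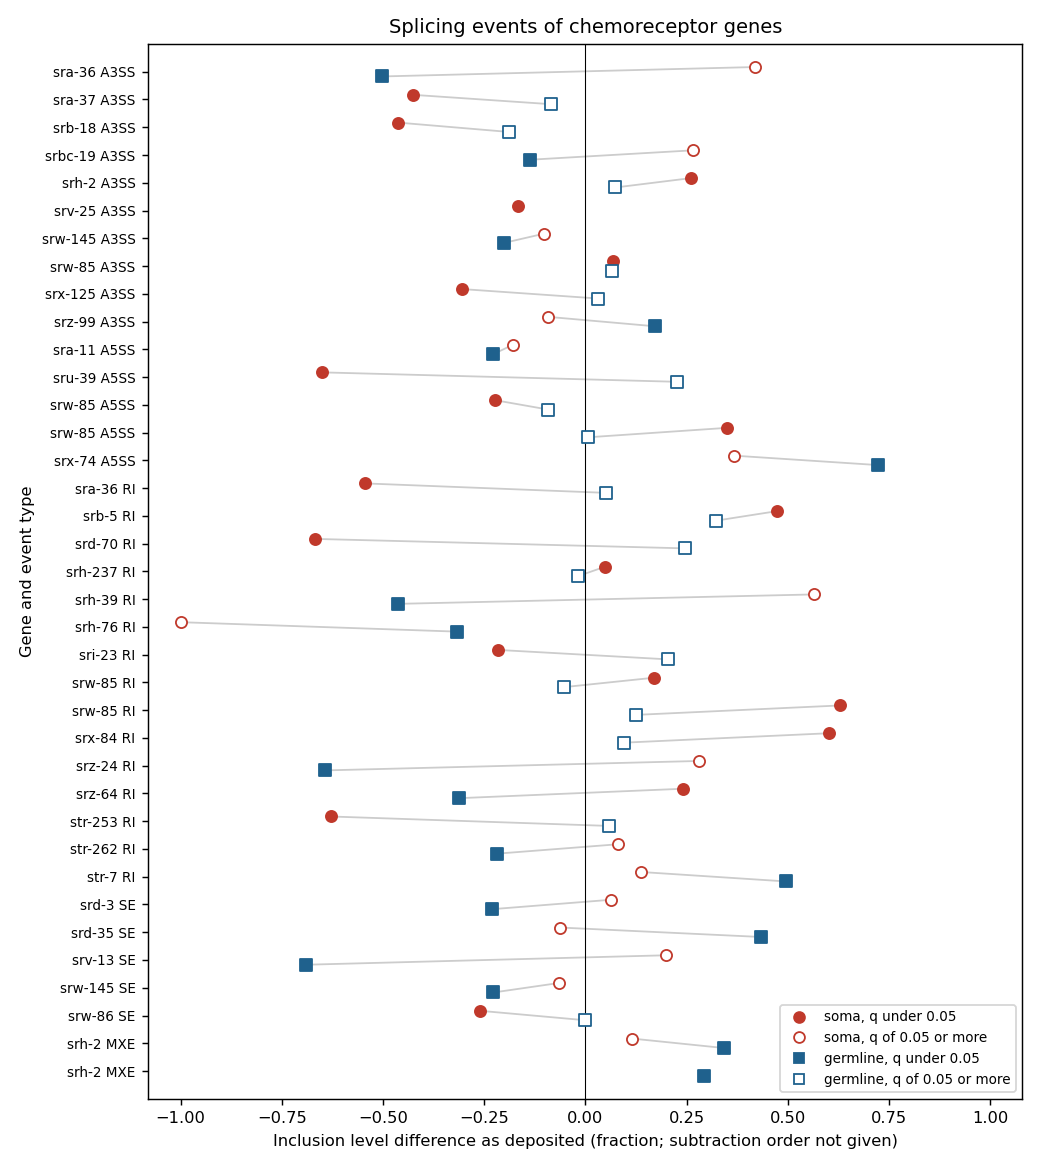
Inclusion level difference (x axis, a fraction, sign as deposited) of the 37 chemoreceptor events called in the soma or the germline, with circles for the soma and squares for the germline, filled where q was under 0.05. A grey line joins both values of an event, the circle drawn slightly above the square. The RI event of srz-64 is the one event filled in both, with 0.242 in the soma and -0.311 in the germline.

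Most events overlapped coding sequence. Any overlap of the listed span was counted, and RI spans can take in the flanking exons, so the part that varies need not be coding. Of the 39 events, 33 overlapped annotated coding sequence of the named gene, 25 had both edges at annotated exon edges and 16 matched an annotated exon exactly. Coordinates below are on WBcel235/ce11, counted from 1.

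Retained introns came first in number. Of the 15 RI events, 12 held an annotated intron of the named gene, and 11 of them exactly 1, of 42 to 429 bases with a median of 63. The events of sri-23 and srz-64 and the upstream one of srw-85 held none. An intron whose length is a multiple of 3 can be read through in frame if it holds no stop codon, and 5 of the 11 had such a length. In 6 of the 15 events the retained form was itself an annotated exon, in srd-70, srh-237, srh-76, srw-85, str-253 and str-7.

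Among RI events called in the soma, the largest difference was that of srd-70, -0.667 (q = 0.0134 in the authors' deposited table), over 429 bases of intron within 20455413 to 20456199 on chromosome V. Its germline difference was 0.245 with a q-value of 1. The RI event of str-253 (chromosome V, 2252951 to 2253263, intron of 58 bases) had -0.629 in the soma (q = 0.000712) and 0.059 in the germline (q = 1) in the authors' deposited table. That of sra-36 (chromosome II, 4539840 to 4540219, intron of 63 bases) had -0.545 in the soma (q = 0.0112) and 0.05 in the germline (q = 1) in the authors' deposited table. These 3 events were thus negative in the soma and slightly or moderately positive, without passing, in the germline.

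Other introns went the opposite way in the soma. The RI event of srx-84 (chromosome V, 11599798 to 11600442, intron of 42 bases) had 0.603 in the soma (q = 0.0154) and 0.096 in the germline (q = 0.849) in the authors' deposited table. That of srb-5 (chromosome II, 5162669 to 5163447) had 0.473 in the soma (q = 0.00541) and 0.324 in the germline (q = 1) in the authors' deposited table. The smallest called difference was 0.049 for srh-237 (q = 0.0481 in the authors' deposited table), whose germline difference was -0.018. The event of the pseudogene sri-23, by contrast negative, had -0.215 in the soma (q = 0.00133 in the authors' deposited table) and reaches into the neighbouring gene F59E11.2.

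Among RI events called in the germline, srz-24 (chromosome IV, 4980118 to 4980663) had the largest difference, -0.644 (q = 0.00265 in the authors' deposited table), over a span with 2 annotated introns of 86 and 51 bases. The RI event of str-7 (chromosome V, 16098367 to 16098924, intron of 118 bases) had 0.496 in the germline (q = 4.89e-05) and 0.138 in the soma (q = 0.649) in the authors' deposited table. It was the single positive RI event called in the germline. The others were srh-39 (-0.464, intron of 42 bases), srh-76 (-0.317, 44 bases), srz-64 (-0.311) and str-262 (-0.219, 123 bases), with germline q-values from 0.0122 to 0.0303 in the authors' deposited table. For srh-76 the soma difference was -1 with a q-value of 1, and for srh-39 it was 0.565 with a q-value of 1. An extreme difference did not bring a low q-value there.

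The event of srz-64 (chromosome II, 1290800 to 1291032) was the one called in both comparisons, with 0.242 in the soma (q = 0.0321) and -0.311 in the germline (q = 0.0122) in the authors' deposited table. It lies inside the first annotated intron of srz-64, of 3333 bases, where a pseudogene on the same strand, listed as Y57G7A.8, overlaps it. Reads there cannot be assigned to srz-64 itself with certainty.

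Alternative 3′ sites fell into short and long shifts. In 3 soma-called events the listed exon was longer than an annotated exon by under 10 bases at its acceptor end. These were sra-37 (chromosome X, 13891274 to 13891479), longer by 7 bases, srb-18 (chromosome V, 7516906 to 7517098), by 6 bases, and srx-125 (chromosome V, 13368989 to 13369063), by 9 bases. The shifts of 6 and 9 bases are multiples of 3 and that of 7 is not. Their soma differences were -0.427 for sra-37 (q = 3.41e-06), -0.464 for srb-18 (q = 2.56e-05) and -0.304 for srx-125 (q = 0.0329) in the authors' deposited table. Their germline differences were -0.084, -0.188 and 0.032 and did not pass. All 3 were negative in the soma, as were 559 of 576 soma-called A3SS events (97.05%) of the whole table with a shorter annotated exon within 10 bases, whose median difference was -0.183. That exon was found through the strand of the named gene.

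Longer shifts were mixed. The srh-2 event at 733733 to 733960 on chromosome V, which matches an annotated exon that other isoforms shorten by 91 or 131 bases, had 0.262 in the soma (q = 0.0234 in the authors' deposited table) and 0.074 in the germline. The srv-25 event (chromosome IV, 6303343 to 6303742), which spans an annotated intron of 120 bases, had -0.167 in the soma (q = 0.0259 in the authors' deposited table) and no germline value. With srw-85, 1 of the 3 soma-called events with a shift of more than 10 bases was negative, beside 146 of 171 (85.4%) in the whole table.

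In the germline, sra-36 had an A3SS difference of -0.503 (q = 0.000268 in the authors' deposited table) for the annotated exon at 4539446 to 4539635 on chromosome II, against 0.42 in the soma, which did not pass (q = 0.329). That exon is the sixth of the annotated transcript, counted from the 5′ end, and the intron of sra-36 called in the soma lies between the third and the fourth. The other germline A3SS events were srw-145 (-0.202), srbc-19 (-0.137) and srz-99 (0.172), with q-values of 0.000187, 0.0477 and 0.0181 in the authors' deposited table. The SE event of srw-145 shares its start with the A3SS event and had -0.227 (q = 0.000887 in the authors' deposited table), so both events may share reads.

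Alternative 5′ sites gave the largest called difference among chemoreceptor events. The srx-74 event (chromosome V, 4659442 to 4659638) had 0.723 in the germline (q = 8.09e-05) and 0.367 in the soma (q = 1) in the authors' deposited table. The listed exon belongs to an annotated noncoding isoform, and the coding isoform has a donor site 111 bases upstream. The sru-39 event (chromosome V, 9803963 to 9804121) had -0.651 in the soma (q = 0.00494) and 0.227 in the germline (q = 0.602) in the authors' deposited table. Its 2 annotated coding isoforms differ there by 3 bases, a single codon's length. The gene sra-11, known for expression in the AIY interneurons, had -0.227 in the germline (q = 0.0318) and -0.178 in the soma (q = 1) in the authors' deposited table, for an exon 24 bases longer than the annotated one.

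Of the 5 SE events of chemoreceptor genes, 4 were called in the germline and 1 in the soma. Of 511 SE events listed in the whole table, 109 were called in the germline and 176 in the soma. The exon of 306 bases of srv-13 (chromosome IV, 6407431 to 6407736), a multiple of 3, had -0.689 in the germline (q = 7.96e-05) and 0.199 in the soma (q = 1) in the authors' deposited table. The exon of 194 bases of srd-35 had 0.433 (q = 0.00254) and that of 130 bases of srd-3 had -0.231 (q = 0.00148) in the germline of the authors' deposited table. Neither length is a multiple of 3. The gene srw-86, which has values in both tables, had the single SE event called in the soma, 71 bases at 19400451 to 19400521 within its first annotated exon and at the 3′ edge of it, with -0.26 (q = 0.00287) in the authors' deposited table. The germline difference of that event was 0, while the srw-86 transcript level fell in the germline and did not pass in the soma.

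Mutually exclusive exons were called in the gene srh-2 alone among chemoreceptor genes. Its 2 MXE events, at 731403 to 731715 and 731437 to 731715, overlap and had 0.342 and 0.294 in the germline (q = 9.82e-05 and 0.000126 in the authors' deposited table). The soma difference was 0.115 (q = 0.492) for the first and is not given for the second.

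The gene srw-85 had 5 listed events, the most of any chemoreceptor gene, and all were called in the soma and none in the germline. At the exon span 19430029 to 19430625, its RI event had 0.17 (q = 6.69e-05) and its A3SS event 0.068 (q = 0.03) in the soma of the authors' deposited table. The overlapping A5SS event at 19430258 to 19430625 had -0.224 (q = 0.000977 in the authors' deposited table). The annotated noncoding isoform keeps this intron of 269 bases and the coding isoform removes it. A second cluster lies farther upstream, where the RI event at 19431062 to 19432157 had 0.629 (q = 0.00038) and the A5SS event at 19431177 to 19432157 had 0.349 (q = 0.0236) in the authors' deposited table. This A5SS event lies wholly beyond the annotated 5′ end of srw-85, and the RI event lies almost wholly beyond it. Both overlap a pseudogene, named C25F9.t5 in the table, on the opposite strand. Reads there cannot be assigned to srw-85 itself with certainty. The germline differences of the 5 events ran from -0.092 to 0.124. Within each cluster the events overlap and may share reads, so they are not independent.

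**Figure D5:**
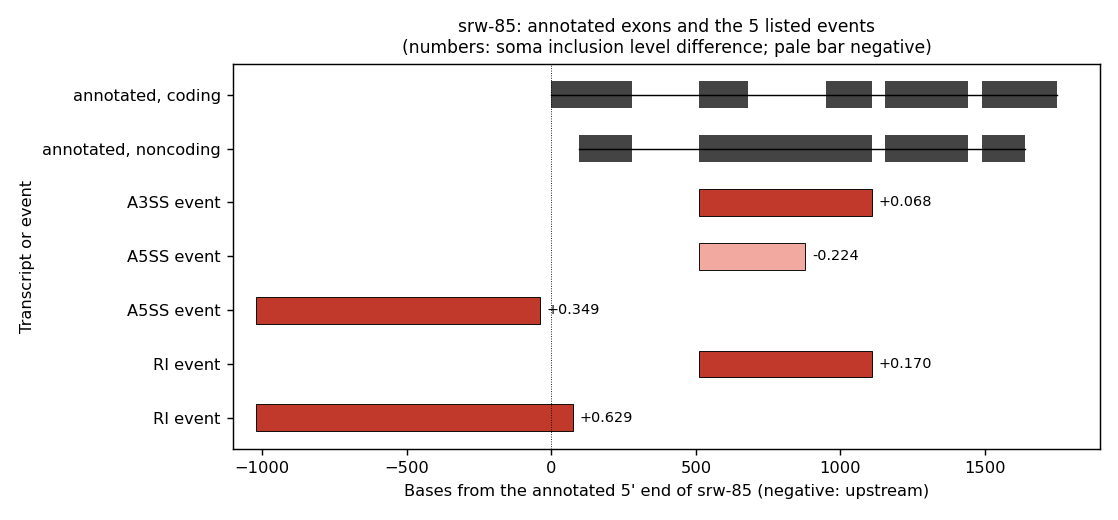
Annotated exons of srw-85 (dark bars, thin lines for introns) and its 5 listed events (red for a positive, pale for a negative soma difference, with the value beside the bar), by distance in bases from the annotated 5′ end of the gene. One cluster lies on the second and the third exon of the coding isoform and the other, with the largest difference of 0.629, lies almost wholly upstream of the annotated gene.

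Genes of the signalling pathway had called splicing events too. The chemosensory signalling genes had 9 listed events, of which 5 were called in the soma and 3 in the germline, beside 53.1% and 26.5% of all listed events. The called events lay in arr-1, egl-4, gpa-6, pde-1 and unc-43. The largest called difference was that of an RI event of unc-43, -0.405 in the germline (q = 0.00122 in the authors' deposited table). Its soma difference was 0.289 and did not pass (q = 0.742). Of the 5 called in the soma, 4 were negative and 1, the A3SS event of pde-1, was positive (0.238, q = 0.021 in the authors' deposited table). One A3SS event of egl-4, a cGMP-dependent protein kinase of odour adaptation, was called in both comparisons, with -0.16 in the soma (q = 6.02e-12) and -0.073 in the germline (q = 7.34e-05) in the authors' deposited table. Another, listed with both ccm-2 and egl-4, had -0.144 in the germline (q = 0.00415 in the authors' deposited table). Its soma difference of 0.035 did not pass. Genes of receptor trafficking and cilia had 7 listed events, of which 6 were called in the soma, 3 of them positive and 3 negative, and 1 in the germline. The gene odr-4, needed to bring some chemoreceptors to cilia, had A3SS events with -0.265 (q = 6.2e-09) and -0.226 (q = 0.039) in the soma of the authors' deposited table. Its germline differences were -0.052 and 0.157 and did not pass. Called positive soma events were listed for ifta-2 (0.357, q = 0.000162) and for daf-10 (0.068, q = 1.26e-10, and 0.017, q = 0.0151) in the authors' deposited table, each under the name of another gene as well. In the RI event of the G protein gene gpa-6 the soma difference was -0.295 (q = 0.00408 in the authors' deposited table).

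The splicing table also sets worms making sperm against worms making oocytes, in data of an earlier study by others. Only 6 of 39 chemoreceptor events (15.4%) had a value there, against 2460 of all 3096 listed events (79.5%). Of the 6, 2 were called, beside 65% of all events with a value. Both were A3SS events of the pseudogene srz-33, with 0.192 (q = 0.000664) and 0.055 (q = 0.0386) in the authors' deposited table. Another pseudogene overlaps both, and the table lists both under srz-33 and F19B2.12. Their soma and germline differences lay between -0.036 and 0.015 and did not pass. The remaining 4 events with a value, of srb-18, srd-70, srh-237 and srz-64, had q-values of 1, and the largest of their differences was 0.571 for srd-70.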

How the data were processed

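The members and gene lists were chosen with earlier results of these data known. The authors deposited normalized group mean FPKM values that pool replicates, per the file headers. Beside them stand log2 fold changes with p-values corrected by Benjamini-Hochberg, and a mean count over all samples of unstated normalization, all as deposited. For splicing the authors deposited q-values and inclusion level differences, a score between -1 and 1, on StringTie models, per the file headers. The submitters' processing notes name STAR 2.7.2a, SAMtools 1.7, Trim Galore 0.6.0, cutadapt 1.18, DESeq2 1.26.0 and the build WBcel235/ce11. They name no read counter and no splicing caller.

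Since the tables hold no value per sample and list only features that passed a threshold, no model was fitted. Calls rest on the authors' adjusted p-values and q-values below 0.05. For the 9 member genes the log2 fold changes differed by at most 0.015 from the log2 FPKM ratio of depleted to control worms of the same comparison. They are read in that direction, although a header note describes the germline column with the soma control as its baseline.

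Event starts in the table count from 0: adding 1 gave an annotated exon start in 2396 of 3096 events, against 10 without. Exons and strands came from Ensembl release 115 of the same assembly, and symbols of pseudogenes from RefSeq entries with identical coordinates. All 38 names were found. By rule, every member could be named, with full values for called ones. Likeness used a pseudocount of 0.1 FPKM. Sequences were not analysed here. The counting of calls was tested on simulated data. Alternatives changed thresholds, minimum sizes, minimum mean count and the naming of members. Python 3.11.15, pandas 2.3.3, numpy 2.4.6 and matplotlib 3.10.9 were used.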

Additional observations from a re-analysis of the deposited data

How the results depend on the processing

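Of 32 alternatives, 23 left the number of called chemoreceptor genes or events within 1.5 times of that reported and 9 did not. Requiring a log2 fold change of 2 or more in size left 0 genes in the soma and 1, str-31, in the germline. A mean count of at least 100 left 2 germline genes, both lower, and 3 soma genes, all lower. The rises of str-31, srh-16 and str-173 thus rest on genes with fewer counts. So do the germline falls of srh-129 (mean count 64.1) and srab-12 (83.7). At a q-value under 0.01 the called events were 10 in the soma, 11 in the germline and 1 between sperm-producing and oocyte-producing worms. That last comparison also had 1 event at an absolute difference of at least 0.1, 1 when each gene was counted once, and 0 at 0.2. Widening the members to odr-10 and srr genes gave 6 soma and 8 germline genes; wider descriptions of genes were not used here. Names from the current annotation and from the StringTie symbol were alternatives chosen after seeing the data. No paired analysis was possible because the tables hold group means and no value per sample, and for the same reason no sample could be left out. Depth per sample is unknown, so what depth limits cannot be stated.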

Other observations

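Some named chemoreceptor genes are neighbours on chromosome V. The gene str-31, which rose in both comparisons, lies 6572 bases from srb-18, whose A3SS event was called in the soma, on the opposite strand. The genes sru-39, with a called A5SS event, and sru-40, which fell in the soma, lie 28011 bases apart on opposite strands. The genes srw-85 and srw-86, both with events called in the soma, lie 28667 bases apart on the same strand, and srh-2 and str-262 lie 17014 bases apart. Pairs were listed up to a gap of 50000 bases after their values were known, and nothing was tested on them.

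Pan-neuronal genes had 4 listed splicing events, in rgef-1, unc-13 and unc-64, all called in the germline comparison and none in the soma, beside 26.5% and 53.1% of all listed events. Of the 4, 2 are events of rgef-1. The largest was -0.142 for unc-13 (q = 0.0288), and the SE events of rgef-1 had 0.101 and 0.1 (q = 0.0144 and 0.0196), in the authors' deposited table. The remaining one, 0.04 at unc-64, is listed with both unc-64 and set-25.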
